A study of Schizosaccharomyces pombe with 10 samples.

Results

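The genes near the ends of chromosomes I and II of the fission yeast Schizosaccharomyces pombe were taken by name. Their systematic identifiers start with the names of 13 cosmid clones that cover these ends, and 157 of the 7017 genes in the count table carried such a name. Matched by identifier to RefSeq's annotation of assembly ASM294v3, all 157 were found, 144 as protein-coding genes and 13 as pseudogenes. They lay at positions 1 to 71 when genes were counted inward from a chromosome end, with 61 at the left and 39 at the right end of chromosome I, and 31 at the left and 26 at the right end of chromosome II.

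Subtelomeres are the stretches just inside the telomere repeats. In fission yeast their outer parts are nearly the same at several ends, hold the helicase genes tlh1 and tlh2, and are packed into heterochromatin marked by methylation of histone H3 at lysine 9, which the methyltransferase Clr4 writes and the protein Swi6 binds. Farther in lie single-copy genes for transporters, sugar use, detoxification and amino acid metabolism, many of them weakly transcribed in growing cells and switched on by stress or poor nutrition. Atf1 is a bZIP transcription factor that binds the cyclic AMP response element (CRE), and Sty1 is the stress-activated MAP kinase that phosphorylates it.

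PolyA RNA was sequenced from exponential cultures in minimal medium, untreated or given 1 mM H2O2 for 15 min. WT was the wild type, STY carried a deletion of sty1, and HA, 10D and 10M were labelled as carrying that deletion together with an HA-tagged Atf1: wild-type in sequence in HA, phosphomimicking in 10D and unphosphorylatable in 10M. Each strain and treatment gave 1 library, 10 in all, with 9178795 to 26503471 counts, and the 10D and 10M libraries were the deeper ones. No strain was replicated, so no difference between strains can be told apart from a difference between single cultures. Where strains were pooled, the p-values below set a difference against the spread between the pooled strains. In the fits with strain and treatment as terms, they set it against how far the strains differed in their response to H2O2.

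The deleted gene was checked first. The sty1 level, in counts per 1000000 counts after scaling between libraries (CPM), was 266.7 untreated and 305.2 treated for WT, 8.92 and 9.11 for STY, 119.0 and 125.3 for HA, 105.3 and 129.9 for 10D, 101.4 and 121.0 for 10M. The libraries labelled HA, 10D and 10M therefore held sty1 reads at more than 10 times the level in STY, against the labelled deletion, and they are named below only by their labels. The atf1 level was 143.1 CPM untreated and 642.6 CPM treated for WT, 69.3 and 30.4 for STY, 555.6 and 660.1 for HA, 523.5 and 743.9 for 10D, 357.9 and 398.1 for 10M. The atf1 transcript thus differed between strains, and its part in the results was not tested.

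The CRE core was looked for because HA, 10D and 10M were labelled as differing in their form of Atf1. TGACGT, read on either strand (on the other strand it reads ACGTCA), occurred in 10 of 143 windows from 250 bases before to 50 bases after the gene start, 6.99%, against 302 of 5123 windows of all protein-coding genes, 5.89%. The stretches of 5 genes that reached at least 100 CPM in some library, or changed in 10D, are shown first, and then the windows of a duplicated pair; capitals mark the match, and every sequence runs 5′ to 3′ in the direction of its gene. They come from RefSeq's ASM294v3, at chrI:5497563-5497622 on the minus strand for SPAC869.09, chrII:4460410-4460469 on the plus strand for say1, chrI:60856-60915 on the minus strand for SPAC977.14c, chrI:5541798-5541857 on the plus strand for SPAC186.06, chrI:158087-158146 on the minus strand for adh4, chrI:27965-28013 on the minus strand for SPAC212.02 and chrII:4508200-4508248 on the plus strand for SPBCPT2R1.02. The build the authors counted on is not given in the sources used here.
SPAC869.09: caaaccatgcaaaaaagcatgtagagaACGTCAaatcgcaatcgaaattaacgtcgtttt
say1: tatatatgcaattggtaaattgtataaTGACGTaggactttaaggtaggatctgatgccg
SPAC977.14c: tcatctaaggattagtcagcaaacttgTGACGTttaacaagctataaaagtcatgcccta
SPAC186.06: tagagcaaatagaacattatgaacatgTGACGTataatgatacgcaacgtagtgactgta
adh4: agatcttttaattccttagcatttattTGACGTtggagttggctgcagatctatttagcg
SPAC212.02: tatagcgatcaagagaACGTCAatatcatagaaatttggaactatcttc
SPBCPT2R1.02: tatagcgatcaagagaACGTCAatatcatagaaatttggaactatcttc
The match started 204 bases before the gene start in SPAC869.09, 122 in say1, 46 in SPAC977.14c, 207 in SPAC186.06 and 187 in adh4. A match is a description of letters, not a site that was shown to be bound. The windows of SPAC212.02, at the left end of chromosome I, and SPBCPT2R1.02, at the right end of chromosome II, were the same in 300 of 300 bases. Such copies bear on what a count can show, because a read that matches both places cannot be given to either.

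As a group the subtelomeric genes were weakly expressed. Their median level, taken as each gene's mean over the 10 libraries, was 5.11 CPM against 45.5 CPM for the other 6860 genes. Of the 157, 64 (40.8%) had a mean under 1 CPM, compared with 14.3% of the other genes, and 68 (43.3%) had at least 10 CPM, compared with 71.6%. A lower count in these bulk cultures may mean fewer cells with the transcript or less transcript per cell, which cannot be told apart here.

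The low levels and the repeated sequence went together. The share of each gene's 50-base exon windows that occur more than once in the ASM294v3 genome was at least 50% in 63 of the 157 genes. Of the 23 genes with 0 counts in all 10 libraries, 18 had every window repeated, and 1, SPBPB21E7.05, had none repeated. Of the 134 genes with at least 1 count, 91 had no repeated window and 10 had all windows repeated. How reads with several matches were treated is not given in the sources used here, so silence and unassigned reads cannot be told apart for the repeated genes.

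**Figure D1:**
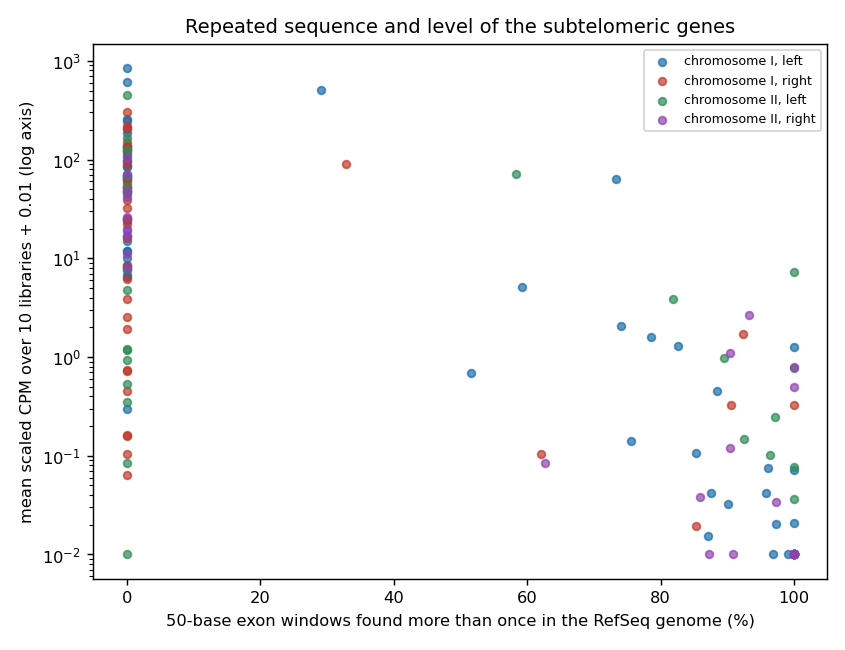
Each point is 1 of the 157 subtelomeric genes, coloured by chromosome end. The x axis gives the percentage of its 50-base exon windows that are found more than once in the RefSeq genome, and the y axis its mean scaled CPM over the 10 libraries plus 0.01, on a log axis. Genes without repeated windows spread over the whole range of levels, while the 28 genes with 100% repeated windows stay below 10 CPM.

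The levels were lowest on the outermost cosmids, though not evenly higher farther in. The median mean level was 0.0212 CPM for the 12 genes of cosmid SPAC212, 0.164 CPM for the 8 of SPAC750, 0.0837 CPM for the 14 of SPBC1348 and 0 CPM for the 9 of SPBCPT2R1, the outermost cosmids of the 4 ends. Farther in, it was 69 CPM for the 18 genes of SPAC11D3, 84 CPM for the 13 of SPAC5H10 and 54.2 CPM for the 11 of SPAC1039, in which no gene was repeated and none had a mean under 1 CPM. The other inner cosmids were lower, with 25.4 CPM for SPBPB21E7, 11.1 CPM for SPBPB2B2, 8.32 CPM for SPAC869, 3.89 CPM for SPBPB10D8, 1.27 CPM for SPAC977 and 0.733 CPM for SPAC186. At least 50% of the windows were repeated in 57.1% of the genes of SPBPB10D8, the innermost cosmid of its end, in 66.7% of those of SPAC977 and in 41.2% of those of SPBPB2B2. Of the 23 genes without a count, 3 lay on SPBPB2B2, 2 on SPBPB10D8 and 1 on SPBPB21E7, and the rest on the outermost cosmids. The highest mean per kilobase of exon was 831.7 CPM per kb for SPAC5H10.03, of the phosphoglycerate mutase and 6-phosphofructo-2-kinase family, followed by 413.4 for SPAC11D3.01c, 409.7 for the aldo-keto reductase gene SPAC977.14c and 405.7 for the alcohol dehydrogenase gene adh4. SPAC977.14c shared 29.1% of its windows with SPAC750.01, a reductase gene at the right end of the same chromosome.

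**Figure D2:**
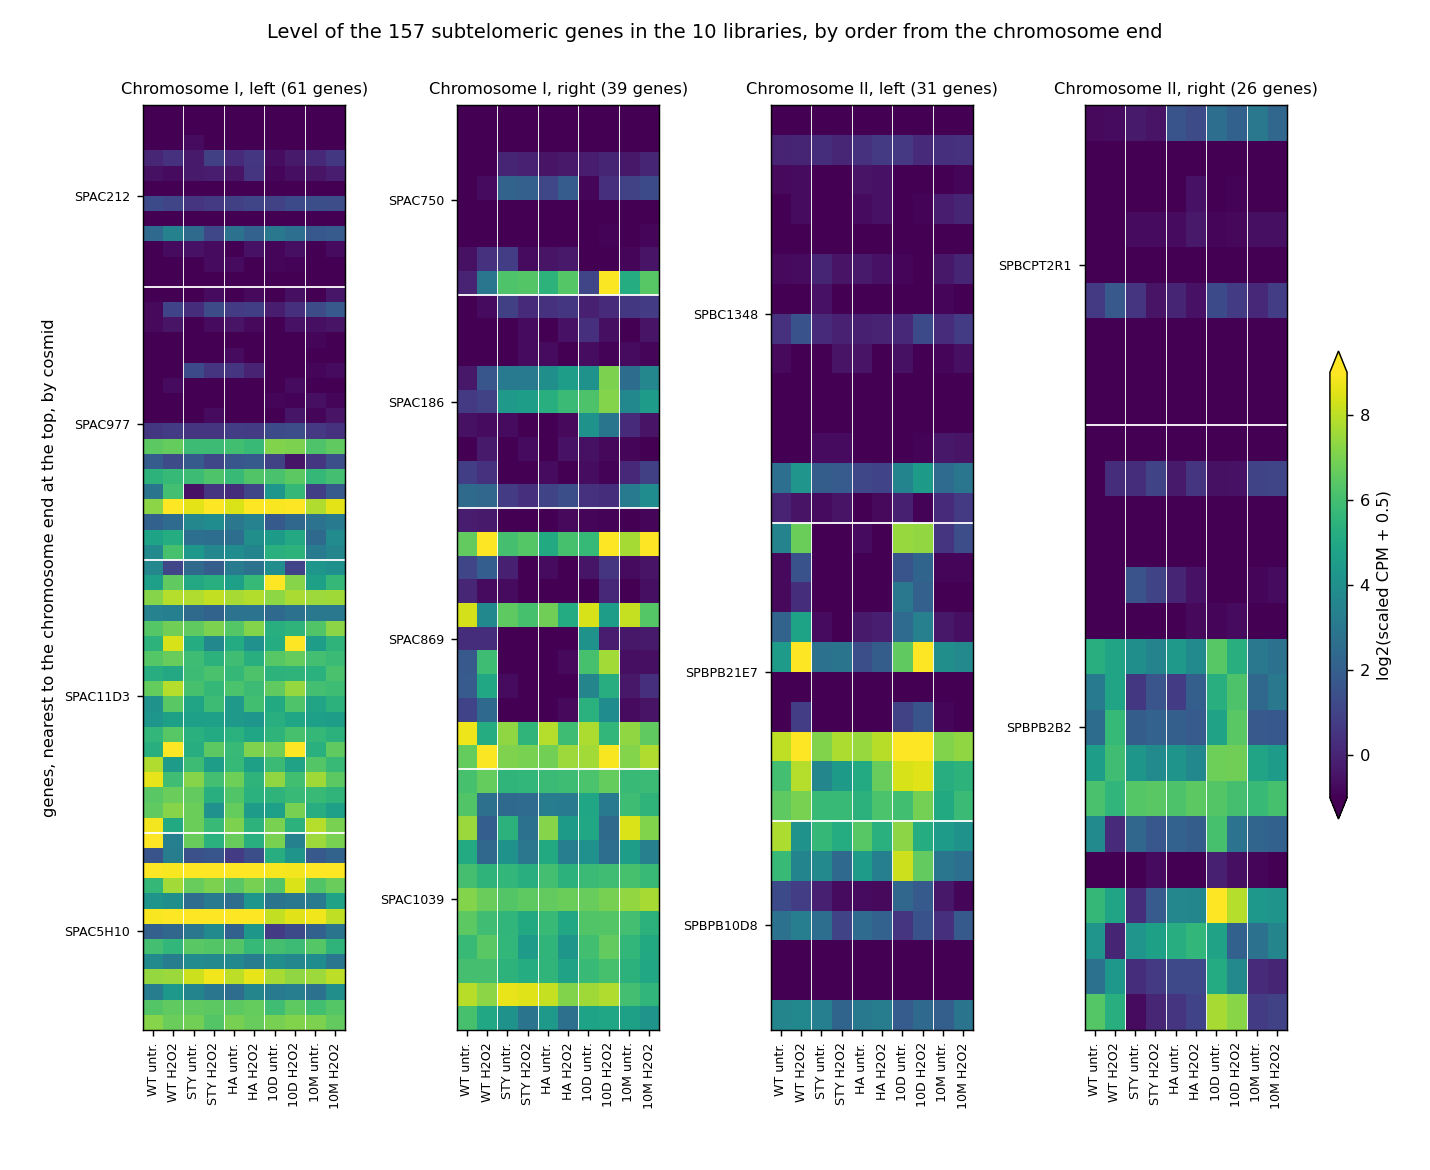
Heat map of log2(scaled CPM + 0.5) for the 157 genes (rows, the gene nearest the chromosome end at the top, with white lines between cosmids) in the 10 libraries (columns, untreated and H2O2 side by side for each strain), 1 panel per chromosome end; colours are capped at both ends of the scale. Most genes of the outermost cosmids are dark in all libraries, with exceptions such as SPAC750.01, and blocks of genes in SPBPB21E7, SPAC869 and SPBPB2B2 are bright in the WT and 10D columns and dark in STY, HA and 10M.

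Of the helicase genes that define the outermost subtelomere, tlh1 was at 0 and tlh2 reached at most 7.47 CPM. tlh1 had 0 counts in every library, with 99.1% of its windows repeated. tlh2, 93.2% repeated and a copy of tlh1, had counts of 1, 3, 24, 94 and 137 untreated and 1, 2, 19, 94 and 83 after H2O2 in WT, STY, HA, 10D and 10M, the order used for all lists of 5 values below. It stood at 0.0941, 0.315, 2.55, 5.68 and 7.47 CPM untreated and at 0.107, 0.225, 1.91, 3.77 and 4.46 CPM after H2O2. WT and STY were below 0.4 CPM and the HA, 10D and 10M libraries between 1.91 and 7.47 CPM, with no overlap, and tlh2 passed the threshold in none of the 12 tests described below.

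The members' share of all counts differed between libraries. Untreated, it was 0.853% for WT (95% Wilson interval 0.847 to 0.858%), 0.69% for STY, 0.644% for HA, 0.929% for 10D (0.925 to 0.934%) and 0.606% for 10M. After H2O2 it was 0.987% for WT (0.98 to 0.993%), 0.607% for STY, 0.606% for HA, 1.26% for 10D (1.26 to 1.27%) and 0.603% for 10M. WT and 10D were above the 3 other strains in both conditions; these intervals cover counting error only, and reads copied by PCR are not independent molecules. The right end of chromosome II stood out in untreated 10D, with 0.129% of counts against 0.0349% in WT and 0.0151 to 0.0181% in STY, HA and 10M. Much of that share came from few genes of cosmid SPBPB2B2, with SPBPB2B2.06c at 650.6 CPM and nrg1 at 208.5 CPM in that library.

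Strains were compared with edgeR's quasi-likelihood test on the counts, fitted over all genes, with p-values adjusted over all genes by the Benjamini-Hochberg method and called at 0.05. The pool means STY, HA and 10M as 1 group, 3 libraries per condition, against which the lone WT and 10D libraries were set on the assumption that they vary like the pooled strains. The tests set the wild type, and the strain labelled as carrying phosphomimicking Atf1, against these strains at rest and under oxidative stress. The pool is defined by its labels, and its HA and 10M libraries held sty1 reads, as given above. Of the 157 genes, 106 had enough counts to be tested there and 51 did not. A gene enters this filter through the libraries in which it is high, so the counts below describe the tested genes and not all 157. Genes with almost no reads in the pool entered only through WT or 10D, which fixed the direction of their difference. Genes with few reads in both WT and 10D entered only through the pool, which fixed it the other way. Such genes are among the calls counted below. A gene with 0 reads may still have a true level of up to 3 counts, equal to 0.12 to 0.337 CPM depending on the library.

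In untreated 10D, 22 of 106 tested subtelomeric genes were higher than in the pool and 2 were lower, where 2.32% and 0.356% of all 6176 tested genes were. The median log2 difference was 0.36 over the subtelomeric genes and -0.01 over all genes. After H2O2, 44 were higher and 5 lower in 10D than in the pool, beside 18.6% and 12.4% of all genes, with medians of 0.85 and 0.03. These counts rested on which strains were pooled: the untreated calls numbered 8 when STY was left out, 7 when HA was and 29 when 10M was, and the treated ones 39, 26 and 58. Leaving out both HA and 10M, whose labels the sty1 counts go against, leaves a single pooled strain and no spread to test against. Of the calls, 5 of 24 untreated and 24 of 49 after H2O2 held in all 3 of these fits. No count over all genes is given for fits with a strain left out, here or below.

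WT was compared with the same pool. Untreated, 1 subtelomeric gene was higher and 1 lower, beside 0.0648% of all genes in either direction. At an unadjusted p under 0.05 there were 37, beside 431 of all 6176 genes. DESeq2, another count test, called 14 beside 65. After H2O2, 36 were higher and 8 lower in WT, beside 21.5% and 16.4% of all genes, with a median log2 difference of 0.63 over the subtelomeric genes and 0.01 over all. The treated calls numbered 37, 22 and 55 when STY, HA or 10M was left out. The 10D and WT comparisons share the pool's libraries, so their counts are not independent of each other.

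**Figure D3:**
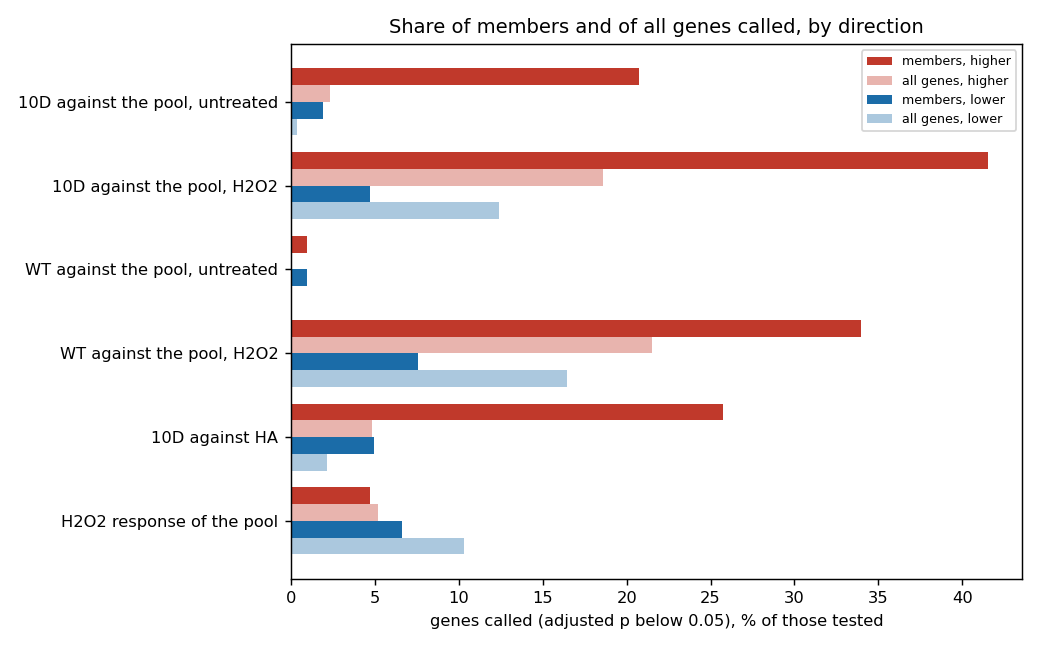
Bars give the percentage of tested genes called (adjusted p below 0.05) in 6 of the comparisons, for the subtelomeric genes (members, dark) and for all genes (light), higher in red and lower in blue. For 10D against the pool after H2O2, 44 of 106 members were higher where 18.6% of all genes were, and for the H2O2 response of the pool the members' bars are no longer than those of all genes.

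Within the strains labelled as sty1 deletions, 10D was also set against HA alone, the strain with the tagged wild-type Atf1. Both treatments of each strain entered a fit with strain and treatment as terms, over 8 libraries, with 101 of the 157 genes tested. In 10D, 26 were higher and 5 lower, beside 4.83% and 2.12% of all genes, with medians of 0.69 over the subtelomeric genes and 0.04 over all. Here too, genes with almost no reads outside 10D entered only through 10D, which fixed their direction, and such genes are among the 26. Over both HA libraries mel1 had 1 count, and pcm2 and SPBPB21E7.10 had 0. The other way round, SPAC977.05c, called lower, had 0 counts in 10D. The calls numbered 16 without STY and 21 without 10M, and 14 of the 31 held in both fits. HA against STY gave 0 subtelomeric calls beside 0.0163% of all genes. At an unadjusted p under 0.05 there were 12, beside 159 of all 6133 genes, and DESeq2 called 4 beside 21. 10M against HA gave 0 beside 0% of all genes. At an unadjusted p under 0.05 there were 30, beside 474 of all 6133 genes, and DESeq2 called 16 beside 118. When 10D was left out of the fit, 18 subtelomeric genes were called.

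In a fit of strain and treatment over all 10 libraries, STY was set against WT. In STY 3 genes were lower and 1 higher of 103 tested, beside 0.279% of all genes in either direction. At an unadjusted p under 0.05 there were 53, beside 1572 of all 6097 genes. The median was -0.83 against -0.03 over all genes. The amino acid permease gene nrg1 had a log2 difference, with its standard error, of -7.45 ± 0.652 (adjusted p = 0.0177). For the pseudogene SPAC977.13c it was -5.69 ± 0.688 (adjusted p = 0.0425, but 0.0762 without HA and 0.108 without 10M) and for gal10 -3.21 ± 0.364 (adjusted p = 0.0397, but 0.0762 without HA and 0.0893 without 10M). gdt1, which encodes a GDT1-like protein, was higher at 4.12 ± 0.297 (adjusted p = 0.00659). The genes that differ are described next by what their products do. Differences are on the log2 scale, ± the standard error, and where leaving out a strain ended a call, the adjusted p without that strain is given.

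Galactose is taken into glycolysis through a chain of enzymes whose genes lie at these ends. gal1 encodes the galactokinase, gal7 the uridylyltransferase and gal10 the epimerase, side by side on cosmid SPBPB2B2, and mel1, on SPAC869, encodes the melibiase that releases galactose from larger sugars. mel1 stood at 3.01, 0, 0, 68.3 and 0.164 CPM untreated and at 58.5, 0, 0.101, 192.7 and 0.161 CPM after H2O2. It had at most 3 counts in any STY, HA or 10M library and 548 counts or more in treated WT and in both 10D libraries, with no overlap. Untreated 10D held 1130 counts against 3 over the untreated pool, a scaled ratio of 848 (exact 95% interval 289 to 4117). After H2O2 the log2 difference from the pool was 10.7 in 10D and 8.99 in WT. mel1 passed the filter on low counts only through libraries outside the pool, so no p-value and no standard error is given.

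gal7 stood at 24.1, 18.9, 17.7, 111.9 and 27.9 CPM untreated and at 60.6, 12.8, 12.1, 114.3 and 21.9 CPM after H2O2. The 10D libraries were the highest and treated WT the next. Against the pool gal7 was higher in untreated 10D by 2.37 ± 0.35 (adjusted p = 0.0188, but 0.122 without STY and 0.161 without HA), after H2O2 by 2.85 ± 0.349 (adjusted p = 0.00246), and in WT after H2O2 by 1.94 ± 0.36 (adjusted p = 0.00734, but 0.0524 without HA). gal10 stood at 8.09, 1.05, 1.17, 37.9 and 4.64 CPM untreated and at 28, 2.59, 3.62, 73.5 and 7.63 CPM after H2O2, and each 10D library was higher than every STY, HA and 10M library. In 10D gal10 was higher than in the pool by 3.95 ± 0.76 (adjusted p = 0.0472, but 0.154 without STY and 0.291 without HA) untreated and by 3.94 ± 0.74 (adjusted p = 0.00966, but 0.068 without HA) after H2O2.

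gal1 stood at 37.6, 15.1, 20.8, 85.1 and 7.47 CPM untreated and at 27.9, 10.6, 13.2, 38.7 and 6.29 CPM after H2O2. Both 10D and both WT libraries lay above every library of the pool. gal1 was called against the pool in treated 10D, higher by 1.95 ± 0.527 (adjusted p = 0.031, but 0.0985 without STY and 0.0671 without HA). tgd1, which encodes a nucleotide-sugar dehydratase next to gal10, stood at 5.36, 3.36, 3.62, 26.6 and 2.95 CPM untreated and at 51.8, 3.94, 3.12, 87 and 2.85 CPM after H2O2, with treated WT and both 10D libraries above every other library. It was higher in 10D by 3.01 ± 0.24 (adjusted p = 0.00149) untreated and by 4.72 ± 0.239 (adjusted p = 0.000187) after H2O2, and in WT after H2O2 by 3.98 ± 0.239 (adjusted p = 0.000443). tgd1 and gal10 overlap on opposite strands in the RefSeq annotation, and so do gal1 and a noncoding RNA, and whether the counts used strand is not given in the sources used here.

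**Figure D4:**
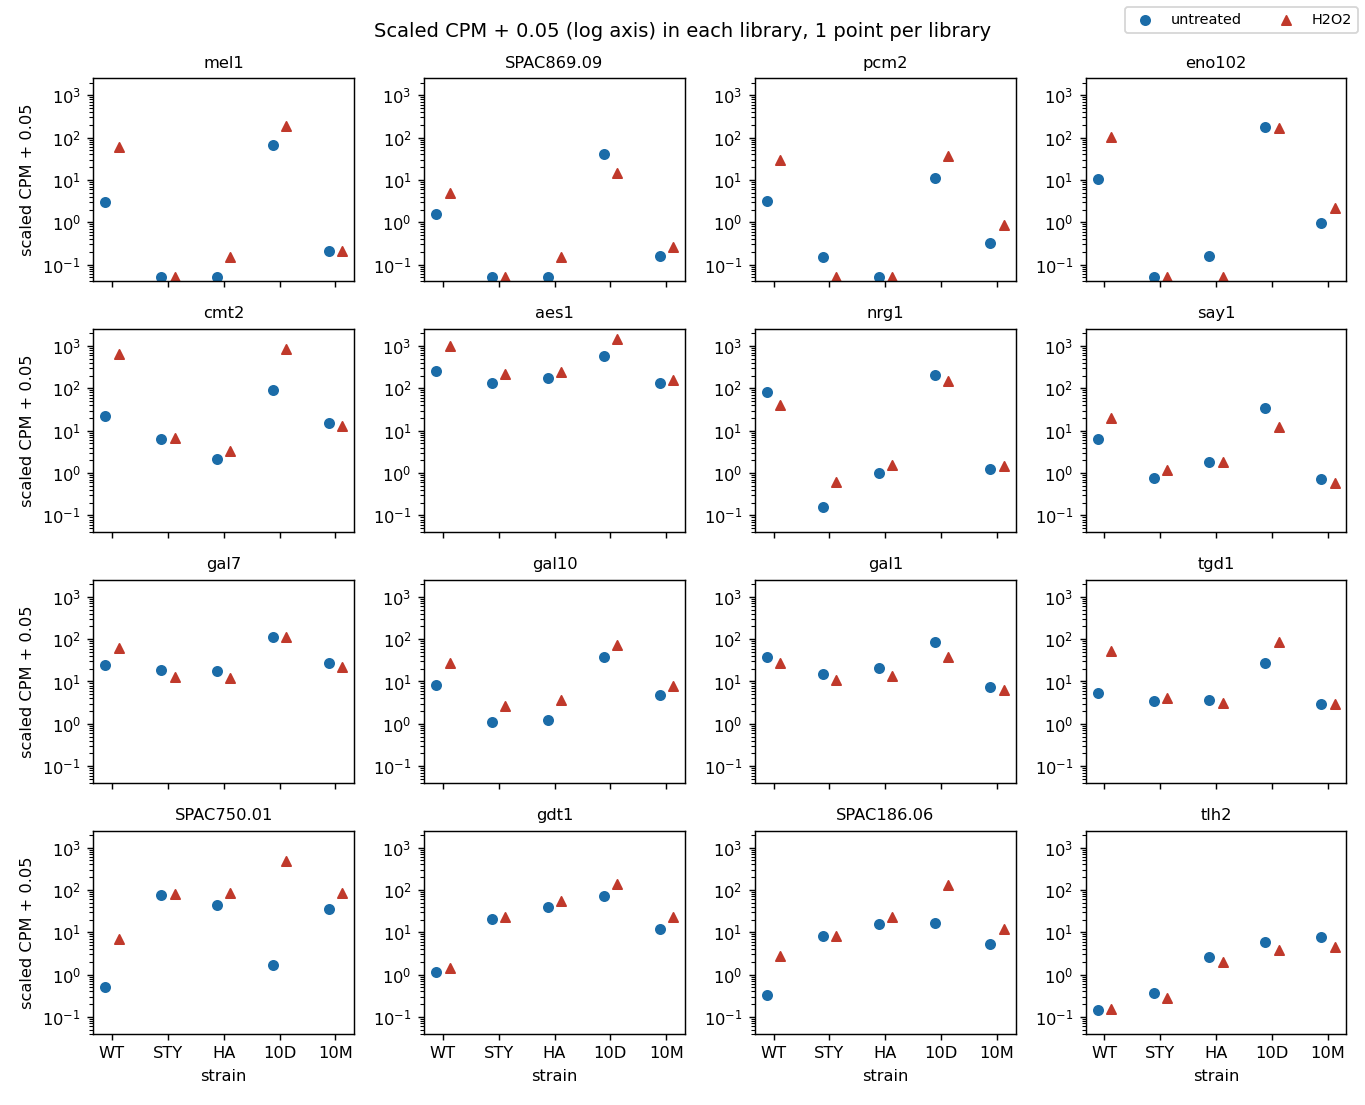
Scaled CPM plus 0.05 on a log axis for 16 subtelomeric genes, 1 point per library, with strains along the x axis; blue circles are untreated and red triangles H2O2-treated cultures, and there is no error bar because each point is a single library. mel1, SPAC869.09, pcm2, eno102 and nrg1 sit near the bottom in STY, HA and 10M and higher in WT and 10D, whereas SPAC750.01 and gdt1 are lowest in untreated WT.

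Cosmid SPBPB21E7, at the left end of chromosome II, held genes that were high in the same libraries. Of its 10 genes 9 were tested, of which SPBPB21E7.02c, SPBPB21E7.06 and SPBPB21E7.10 had 0 or 1 counts in each pooled library and passed the filter on low counts through other strains, so that no count of calls is given for the cosmid. eno102, which encodes an enolase, the glycolytic enzyme, stood at 10.6, 0, 0.106, 176.6 and 0.927 CPM untreated and at 106, 0, 0, 164.3 and 2.1 CPM after H2O2. WT and 10D were above 10 CPM throughout and no library of STY, HA or 10M exceeded 2.1 CPM. eno102 was higher in 10D by 8.56 ± 1.09 (adjusted p = 0.0106, but 0.0615 without STY and 0.13 without HA) untreated and 7.43 ± 1.01 (adjusted p = 0.00325) after H2O2, and in WT after H2O2 by 6.81 ± 1 (adjusted p = 0.00343).

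cmt2, which encodes a catechol O-methyltransferase, stood at 22.2, 6.19, 2.13, 92.8 and 15 CPM untreated and at 659.5, 6.75, 3.32, 835.1 and 12.6 CPM after H2O2. Treated WT and treated 10D were the 2 highest, and untreated 10D came next. Against the pool after H2O2 cmt2 was higher by 6.74 ± 0.865 (adjusted p = 0.00285) in 10D and by 6.41 ± 0.858 (adjusted p = 0.00254) in WT. It was not called in untreated 10D. aes1, of the phenazine biosynthesis family and with the highest mean on this cosmid, stood at 262.6, 137.2, 175.1, 594.3 and 137.4 CPM untreated and at 1030, 216.5, 240.9, 1506 and 161.9 CPM after H2O2, with treated WT and both 10D libraries above the others. It was higher in 10D by 1.98 ± 0.237 (adjusted p = 0.00849, but 0.0888 without STY and 0.0675 without HA) untreated and 2.86 ± 0.234 (adjusted p = 0.000746) after H2O2 and in treated WT by 2.32 ± 0.236 (adjusted p = 0.00107). SPBPB21E7.08, a pseudogene, stood at 63.8, 11.5, 33.8, 334.9 and 36.6 CPM untreated and at 233, 21.6, 100.9, 361.1 and 43.4 CPM after H2O2 and was higher in treated 10D by 2.7 ± 0.764 (adjusted p = 0.0357, but 0.0583 without HA and 0.0887 without 10M).

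The weak genes of this cosmid also differed between WT or 10D and the pool. SPBPB21E7.11 stood at 4.05, 0.105, 0.319, 5.07 and 0.273 CPM untreated and at 27.5, 0, 0.402, 9.87 and 0.161 CPM after H2O2, below 0.5 CPM in every STY, HA and 10M library and above 4 CPM in every WT and 10D library. SPBPB21E7.10 had counts of 1, 0, 0, 123 and 0 untreated and 7, 0, 0, 93 and 0 after H2O2, and SPBPB21E7.06 of 0, 0, 0, 24 and 1 untreated and 12, 0, 0, 62 and 0 after H2O2. SPBPB21E7.10 had 0 counts in all 6 pooled libraries and SPBPB21E7.06 in 5 of them, so after H2O2 their ratios are bounds against a floor of 3 counts over the pool: SPBPB21E7.10 was at least 46.6-fold and SPBPB21E7.06 at least 31.1-fold higher in 10D, and at least 9.33-fold and 16.0-fold in WT. SPBPB21E7.10 and SPBPB21E7.11 overlap on opposite strands. SPBPB21E7.09, an L-asparaginase gene, stood at 91.7, 53, 42, 62.2 and 33.1 CPM untreated and at 126.7, 53.4, 70.9, 121.3 and 56.4 CPM after H2O2, a narrower range, and was higher in treated 10D by 1.0 ± 0.257 (adjusted p = 0.0265, but 0.0871 without HA) and in treated WT by 1.07 ± 0.258 (adjusted p = 0.0184, but 0.0653 without HA). Of its windows 58.3% were repeated elsewhere.

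Next to it on SPBPB10D8, the arylsulfatase gene SPBPB10D8.02c stood at 53.4, 12.4, 22, 300.5 and 7.2 CPM untreated and at 10.8, 4.84, 9.35, 96.4 and 5.8 CPM after H2O2. Every strain had less after H2O2, and 10D was above every STY, HA and 10M library in both conditions. It was higher in 10D than in the pool by 4.46 ± 0.501 (adjusted p = 0.00664, but 0.0791 without STY) untreated and by 3.85 ± 0.511 (adjusted p = 0.00306) after H2O2. SPBPB10D8.01, a cysteine transporter gene that overlaps it on the other strand, stood at 220.3, 50.1, 84.4, 154.1 and 22.3 CPM untreated and at 17, 36.2, 40.7, 35.6 and 16.4 CPM after H2O2, with untreated WT highest, and was called in none of the 12 tests.

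Cosmid SPAC869, at the right end of chromosome I, held further genes with few or no reads in the pool. SPAC869.09, of the Con-6 family and with a CRE core in the window printed above, stood at 1.51, 0, 0, 41.1 and 0.109 CPM untreated and at 4.91, 0, 0.101, 14.2 and 0.215 CPM after H2O2. It had at most 4 counts in any pooled library and 680 in untreated 10D, against 2 over the untreated pool, a scaled ratio of 765 (exact 95% interval 211 to 6332). After H2O2 it was higher in 10D by 6.67 and in WT by 5.16. It too passed the filter only through libraries outside the pool, so no p-value and no standard error is given. pcm2, which encodes a protein-repair methyltransferase acting on damaged aspartyl residues, stood at 3.2, 0.105, 0, 11.1 and 0.273 CPM untreated and at 30.3, 0, 0, 37.5 and 0.806 CPM after H2O2, with WT and 10D above 3 CPM throughout and the other 3 strains below 1 CPM.

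pcm2 was higher in 10D by 6.08 untreated and by 6.67 after H2O2, and in treated WT by 6.38. Like the 2 other genes of this paragraph, it passed the filter only through libraries outside the pool, so no p-value and no standard error is given for them. hry1, for a protein with a cation-binding HHE domain, stood at 0.753, 0, 0, 16.7 and 0.273 CPM untreated and at 0.747, 0, 0, 0.361 and 0.322 CPM after H2O2. Untreated 10D was the single high library, above the pool by 6.95. The urea transporter gene SPAC869.03c stood at 1.6, 0.42, 0.106, 0.242 and 0.109 CPM untreated and at 3.42, 0, 0, 0.963 and 0.215 CPM after H2O2 and was higher in treated WT by 4.96.

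The stronger SPAC869 genes had reads in all strains. yhb1, for the dioxygenase that detoxifies nitric oxide, stood at 96, 65.1, 32.9, 51.9 and 199 CPM untreated and at 768.9, 81.2, 68.5, 1175 and 523.1 CPM after H2O2. cat1, for the plasma membrane transporter of arginine and lysine, stood at 98.3, 133.5, 116.4, 195 and 141.1 CPM untreated and at 495.6, 127.8, 187, 481.2 and 222.3 CPM after H2O2. Treated WT and treated 10D were the highest libraries for both genes, with treated 10M next. cat1 was higher than the pool in treated 10D by 1.41 ± 0.273 (adjusted p = 0.0106, but 0.0779 without HA) and in treated WT by 1.47 ± 0.273 (adjusted p = 0.00741, but 0.0606 without HA). yhb1 was called in none of the 12 tests, its treated pool ranging from 68.5 to 523.1 CPM. The proline transporter gene put4 stood at 431.3, 159.8, 233.3, 216.3 and 162.4 CPM untreated and at 36.2, 46.2, 59.5, 49 and 94.5 CPM after H2O2. The sulfate transporter gene sul2 stood at 328.5, 90.4, 114.4, 339.5 and 276.5 CPM untreated and at 12.3, 68, 35.1, 22.9 and 81.9 CPM after H2O2. Both were lower after H2O2 in each of the 5 strains. put4 changed by -2.04 ± 0.375 (adjusted p = 0.0403, but 0.0543 without WT, 0.0717 without STY, 0.149 without HA, 0.0867 without 10D and 0.0954 without 10M) on the log2 scale over the 5 strains in the fit of strain and treatment.

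SPBPB2B2, at the right end of chromosome II, held genes outside the galactose group that differed in 10D. nrg1 stood at 81.7, 0.105, 0.957, 208.5 and 1.2 CPM untreated and at 39.6, 0.562, 1.51, 148.1 and 1.45 CPM after H2O2, at or below 1.51 CPM in the pool and at or above 39.6 CPM in WT and 10D. It was higher in untreated 10D by 7.95 ± 0.513 (adjusted p = 0.000545), in treated 10D by 6.89 ± 0.49 (adjusted p = 0.000533), in untreated WT by 6.61 ± 0.511 (adjusted p = 0.0209, but 0.336 without HA) and in treated WT by 5.0 ± 0.498 (adjusted p = 0.00104). SPBPB2B2.06c, annotated as a phosphoprotein phosphatase gene, stood at 50.4, 0.735, 11.8, 650.6 and 19.8 CPM untreated and at 28.1, 3.15, 11.7, 239.1 and 17.8 CPM after H2O2, and its 10D libraries were the highest by far. It was above the pool in 10D by 5.87 ± 1.12 (adjusted p = 0.046, but 0.344 without HA) untreated and 4.41 ± 1.09 (adjusted p = 0.0235, but 0.138 without HA) after H2O2.

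say1, for the sterol deacetylase that takes acetyl groups off sterols, stood at 6.21, 0.735, 1.81, 35 and 0.655 CPM untreated and at 19.6, 1.12, 1.81, 12.4 and 0.537 CPM after H2O2. WT and 10D were above 6 CPM and the other strains below 2 CPM in both conditions. It was higher in 10D by 5.08 ± 0.624 (adjusted p = 0.00952, but 0.102 without STY) untreated and by 3.47 ± 0.623 (adjusted p = 0.00857) after H2O2, and in treated WT by 4.14 ± 0.627 (adjusted p = 0.00383). SPBPB2B2.08, an uncharacterized gene, stood at 13.1, 4.41, 3.93, 68.1 and 4.26 CPM untreated and at 0.641, 2.81, 3.32, 6.58 and 3.81 CPM after H2O2, highest in untreated 10D and lowest in treated WT. Against the pool the former differed by 4.01 ± 0.254 (adjusted p = 0.000525) and the latter by -2.37 ± 0.405 (adjusted p = 0.0056). SPBPB2B2.05, a glutamine amidotransferase gene, went against its neighbours: it stood at 18.3, 18.1, 36.7, 26.9 and 6.38 CPM untreated and at 0.534, 25.3, 48.8, 3.81 and 11.2 CPM after H2O2, and treated WT differed from the pool by -5.71 ± 1.62 (adjusted p = 0.0312, but 0.0893 without STY and 0.0535 without HA).

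The outer right end of chromosome I held genes that were lowest in WT. SPAC750.01, an aldo-keto reductase gene, stood at 0.471, 75.3, 43.5, 1.63 and 35.6 CPM untreated and at 7.05, 79.5, 82.6, 488.6 and 83.6 CPM after H2O2. Both WT libraries and untreated 10D were below 8 CPM, while treated 10D was the highest of all at 488.6 CPM. Against the pool its difference was -6.74 ± 0.677 (adjusted p = 0.0346, but 0.336 without HA) in untreated WT and -4.97 ± 0.546 (adjusted p = 0.00589, but 0.0675 without HA) in untreated 10D. After H2O2 it was -3.54 ± 0.485 (adjusted p = 0.00272) in WT and 2.56 ± 0.333 (adjusted p = 0.00288) in 10D. It shared 32.8% of its windows with SPAC977.14c, which stood at 154.9, 387.6, 342.5, 483.3 and 226.4 CPM untreated and at 752.8, 547.2, 620.0, 1134 and 386.6 CPM after H2O2, lowest in untreated WT.

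gdt1 stood at 1.13, 20.5, 39.6, 73.2 and 12.1 CPM untreated and at 1.39, 23.1, 55.7, 140.3 and 22.5 CPM after H2O2, and both WT libraries were more than 8 times below every other library. In treated WT it differed from the pool by -4.59 ± 1.09 (adjusted p = 0.0171), and in 10D it was higher than in HA by 1.11 ± 0.234 (adjusted p = 0.0493, but 0.0607 without STY and 0.108 without 10M). Its neighbour SPAC186.06, an isomerase gene with a CRE core, stood at 0.282, 8.29, 15.2, 16.7 and 5.24 CPM untreated and at 2.67, 8.32, 23.1, 131.6 and 11.9 CPM after H2O2, again lowest in WT, and was higher than the pool in treated 10D by 3.18 ± 0.603 (adjusted p = 0.01). ftm4, for a protein with a transmembrane helix and 92.4% repeated windows, stood at 0, 3.99, 1.7, 0.0604 and 1.47 CPM untreated and at 0.107, 3.71, 3.22, 0.762 and 1.88 CPM after H2O2. Treated WT held 1 count against 100 in the treated pool, 25.0-fold lower (exact 95% interval 4.39 to 998). ftm4 passed the filter on low counts only through libraries of the pool, so no p-value is given. Not all genes of this end were lowest in WT. SPAC186.04c, uncharacterized, stood at 0.188, 0.105, 0, 17.2 and 0.655 CPM untreated and at 0.107, 0, 0.101, 6.98 and 0.215 CPM after H2O2, high only in 10D.

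At the left end of chromosome I, SPAC977 held a transporter and a kinase gene on opposite strands. SPAC977.17, of the MIP superfamily of water and glycerol channels, stood at 13.3, 19.7, 14.1, 40.7 and 8.4 CPM untreated and at 67.3, 11.9, 10.8, 43.4 and 11.1 CPM after H2O2. dak2, for the dihydroxyacetone kinase, stood at 27, 5.77, 5.64, 21.5 and 4.8 CPM untreated and at 36, 5.62, 14.8, 32.7 and 13.5 CPM after H2O2. For dak2 every WT and 10D library lay above every STY, HA and 10M library. After H2O2 SPAC977.17 was higher than the pool by 1.94 ± 0.381 (adjusted p = 0.0112, but 0.0865 without HA) in 10D and 2.58 ± 0.379 (adjusted p = 0.0034) in WT. dak2 was higher by 1.51 ± 0.449 (adjusted p = 0.0413, but 0.108 without HA and 0.059 without 10M) and 1.66 ± 0.452 (adjusted p = 0.0274, but 0.0804 without HA). The pseudogene SPAC977.13c stood at 6.78, 0.21, 0.744, 18.8 and 1.31 CPM untreated and at 64.7, 0.9, 1.61, 49.7 and 3.06 CPM after H2O2, with both WT and both 10D libraries above every library of the pool. Its difference from the pool in 10D was 4.5 ± 0.676 (adjusted p = 0.019, but 0.0506 without STY and 0.204 without HA) untreated and 4.65 ± 0.632 (adjusted p = 0.00329) after H2O2.

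SPAC11D3 held genes of metabolite repair and transport. hsp3104, for a glyoxalase that removes methylglyoxal without glutathione, stood at 38.8, 36.9, 53.1, 114.1 and 39.8 CPM untreated and at 842.7, 89.9, 133.3, 1032 and 94.3 CPM after H2O2. All 5 strains were higher after H2O2, and treated WT and 10D were more than 6 times above the other treated libraries. Against the treated pool it was higher by 3.28 ± 0.261 (adjusted p = 0.000685) in 10D and 2.99 ± 0.262 (adjusted p = 0.000666) in WT. mfs2, for a membrane transporter of the major facilitator family, stood at 43.1, 36.1, 34.9, 36.5 and 23.5 CPM untreated and at 336.6, 12.1, 16.2, 502.4 and 45.2 CPM after H2O2, and treated WT and treated 10D were again the only libraries above 46 CPM. It was higher by 4.32 ± 0.598 (adjusted p = 0.00348) in treated 10D and 3.75 ± 0.596 (adjusted p = 0.00445) in treated WT.

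SPAC11D3.01c, the second Con-6 family gene, stood at 24.3, 32.7, 24.4, 1371 and 25.5 CPM untreated and at 93.6, 39.5, 50.9, 143.9 and 50.7 CPM after H2O2. Untreated 10D was the highest library, above the pool by 5.63 ± 0.216 (adjusted p = 0.000151), and after H2O2 it was still above it by 1.6 ± 0.213 (adjusted p = 0.00307). The amino acid permease gene SPAC11D3.08c stood at 98.7, 67.5, 70.5, 94.6 and 64.6 CPM untreated and at 239.3, 49.6, 58, 170.8 and 59.6 CPM after H2O2, and treated WT and treated 10D were higher than the pool by 2.1 ± 0.144 (adjusted p = 0.000443) and 1.6 ± 0.145 (adjusted p = 0.00102). SPAC11D3.04c, with a polyketide cyclase domain, was one of the few genes lower in 10D, at 82.3, 94.5, 82.8, 39.4 and 77.8 CPM untreated and at 113.9, 130.5, 142.6, 45.2 and 151.4 CPM after H2O2, and differed from the pool by -1.11 ± 0.179 (adjusted p = 0.023, but 0.0744 without STY and 0.212 without HA) untreated and by -1.66 ± 0.184 (adjusted p = 0.00195) after H2O2.

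Transcription factor genes were among the members. SPAC11D3.17, with a fungal zinc cluster, stood at 94, 106, 98.5, 24.7 and 37.4 CPM untreated and at 146.4, 16, 21.9, 123 and 24.5 CPM after H2O2. The treated WT and 10D libraries were the highest, and the treated STY, HA and 10M libraries were the lowest 3. After H2O2 it was higher than the pool in 10D by 2.54 ± 0.485 (adjusted p = 0.0101, but 0.0715 without HA) and in WT by 2.8 ± 0.487 (adjusted p = 0.00588, but 0.0511 without HA). toe4 stood at 82.9, 59.5, 59.8, 83.8 and 63.3 CPM untreated and at 102.6, 42.1, 38.9, 99 and 56.2 CPM after H2O2. klf1 stood at 88.3, 47.3, 54.4, 78.2 and 64.1 CPM untreated and at 60.3, 33.3, 31.2, 78.8 and 42.7 CPM after H2O2. Both stayed within a factor of 3 over all libraries. toe4 was higher by 1.1 ± 0.198 (adjusted p = 0.00862, but 0.0667 without HA) and 1.16 ± 0.2 (adjusted p = 0.00572, but 0.0519 without HA) in treated 10D and WT. klf1 was higher by 1.13 ± 0.217 (adjusted p = 0.0105, but 0.0854 without HA) and 0.75 ± 0.224 (adjusted p = 0.0366, but 0.0984 without STY and 0.173 without HA).

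On SPAC5H10, the innermost cosmid of the left end, dgc1, for the D-glutamate cyclase, stood at 544.8, 100.6, 100.9, 125.8 and 184.4 CPM untreated and at 9.4, 41.7, 39.2, 10 and 126.7 CPM after H2O2. It was lower after H2O2 in each strain, with treated WT and treated 10D lowest. They differed from the pool by -2.89 ± 0.869 (adjusted p = 0.0372, but 0.0622 without STY and 0.0741 without HA) and -2.8 ± 0.84 (adjusted p = 0.0426, but 0.0697 without STY and 0.092 without HA). hsp3102, another glyoxalase gene, on the opposite strand of dgc1, stood at 2.54, 2.31, 1.17, 37.1 and 2.95 CPM untreated and at 8.75, 2.7, 2.11, 17.4 and 4.08 CPM after H2O2 and was higher in 10D by 4.08 ± 0.479 (adjusted p = 0.00775, but 0.09 without STY and 0.059 without HA) untreated and by 2.51 ± 0.477 (adjusted p = 0.01, but 0.053 without STY) after H2O2. adh4, with a CRE core, stood at 484.5, 1249, 884.2, 269.5 and 442 CPM untreated and at 548.3, 834.6, 741.7, 378.7 and 266.1 CPM after H2O2, its untreated 10D and treated 10M libraries the lowest 2, and was called in none of the tests. SPAC5H10.03 stood at 729.7, 1071, 983.9, 469.8 and 556.4 CPM untreated and at 476.7, 1513, 1419, 446.9 and 732.7 CPM after H2O2 and differed in 10D from HA by -1.36 ± 0.211 (adjusted p = 0.0211, but 0.0607 without STY and 0.0726 without 10M).

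Other called genes lay scattered over the ends. pdc102, for a pyruvate decarboxylase, had counts of 0, 13, 8, 7 and 19 untreated and 1, 6, 10, 17 and 22 after H2O2, and treated WT was 9.5-fold below the pool (exact 95% interval 1.61 to 385). It passed the filter on low counts only through libraries of the pool, so no p-value is given. SPBPB21E7.02c, of the phosphoglycerate mutase family, had counts of 1, 0, 0, 42 and 1 untreated and 22, 0, 0, 104 and 1 after H2O2. Its scaled ratio of treated 10D to the pool was 156 (27.4 to 6231). As given above, it passed the filter through other strains, so no p-value is given. The sodium antiporter gene nhe1 stood at 89.3, 57.5, 61.5, 138.1 and 76.3 CPM untreated and at 98.1, 57.9, 54.9, 130.8 and 94.3 CPM after H2O2, and 10D was above HA by 1.2 ± 0.174 (adjusted p = 0.0184, but 0.0526 without STY and 0.0505 without 10M). The transcription factor gene SPBC1348.12 stood at 5.83, 3.36, 1.7, 10.8 and 5.13 CPM untreated and at 17.9, 3.15, 1.51, 21.5 and 7.04 CPM after H2O2, with WT and 10D highest in each condition, and 10D was above HA by 3.26 ± 0.42 (adjusted p = 0.0129).

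The H2O2 response was tested over the 5 strains in the fit of strain and treatment, which finds what the strains share. Of 103 tested subtelomeric genes 3 rose and 5 fell, beside 2.07% and 2.84% of all genes, with medians of 0.12 and -0.03. All 8 calls were lost when any single strain was left out, with adjusted p from 0.0543 to 0.157. gal10 rose by 1.24 ± 0.215 (adjusted p = 0.036), the agmatinase gene SPAC11D3.09 by 1.34 ± 0.256 (adjusted p = 0.0428) and SPAC977.13c by 1.85 ± 0.384 (adjusted p = 0.0487). isp5, an amino acid transporter gene, stood at 178.5, 42, 145.4, 30.6 and 341.4 CPM untreated and at 3.52, 6.3, 21.6, 4.98 and 137.4 CPM after H2O2 and changed by -2.89 ± 0.578 (adjusted p = 0.0462). The serine acetyltransferase gene SPAC1039.08 changed by -1.71 ± 0.277 (adjusted p = 0.035), the oxoprolinase gene SPAC11D3.15, of glutathione turnover, by -1.52 ± 0.252 (adjusted p = 0.035) and SPBPB10D8.02c by -1.39 ± 0.272 (adjusted p = 0.0436). Each of these 4 genes was lower after H2O2 in all 5 strains.

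Within the pool, 5 of 106 subtelomeric genes rose and 7 fell after H2O2, beside 5.18% and 10.3% of all genes, with medians of 0.01 and -0.01. The calls numbered 4, 0 and 18 when STY, HA or 10M was left out. With strain as a block, which pairs the treatments of each strain, 19 rose and 22 fell, beside 13.3% and 18.1% of all genes. hsp3104 rose by 1.3 ± 0.209 (adjusted p = 0.0138, but 0.0584 without STY and 0.209 without HA) and SPAC11D3.09 by 1.07 ± 0.196 (adjusted p = 0.0186, but 0.0797 without STY and 0.263 without HA), while the change was -1.94 ± 0.394 (adjusted p = 0.0234, but 0.126 without STY and 0.305 without HA) for SPAC11D3.17, -1.46 ± 0.292 (adjusted p = 0.0224, but 0.0584 without STY, 0.28 without HA and 0.069 without 10M) for SPAC1039.08 and -1.46 ± 0.287 (adjusted p = 0.0217, but 0.0755 without STY and 0.311 without HA) for put4. None of these calls held without HA.

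The response of WT and of 10D was compared with that of the pool in an interaction test that was added after the data had been seen. The WT response differed in 6 subtelomeric genes of 106, beside 5.44% of all genes in either direction, and the 10D response in 7, beside 4.87%. With strain as a block, which pairs the treatments of each strain, the WT response differed in 28 (14 higher, 14 lower) and the 10D response in 23 (14 higher, 9 lower), beside 17.1% and 13.8% of all genes. hsp3104 rose more in WT by 3.15 ± 0.428 (adjusted p = 0.0198, but 0.0712 without STY and 0.149 without HA), tgd1 rose more in WT by 3.27 ± 0.393 (adjusted p = 0.0157, but 0.0635 without STY and 0.151 without HA) and in 10D by 1.71 ± 0.372 (adjusted p = 0.0496, but 0.0933 without STY, 0.282 without HA and 0.0515 without 10M), and SPAC5H10.05c, for an FAD-binding oxidoreductase, by 1.51 ± 0.286 (adjusted p = 0.0345, but 0.087 without STY and 0.231 without HA) and 1.68 ± 0.285 (adjusted p = 0.0263, but 0.069 without STY and 0.214 without HA). SPAC750.01 rose more in 10D by 7.54 ± 0.657 (adjusted p = 0.00667, but 0.0982 without HA), from the low untreated level given above. All 13 calls were lost without HA.

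The ratio of treated to untreated was also taken within each strain, for the 93 subtelomeric genes whose mean reached 1 CPM. Genes were counted as apart when the ratio was at least 2-fold and its exact binomial 95% interval excluded 1, which covers counting error only and is no test of the condition. In WT 31 were higher and 16 lower, beside 11.6% and 7.05% of all 5969 genes with that mean. For STY 5 were higher and 15 lower (2.97% and 6.4% of all genes). For HA the counts were 9 and 15 (8.13% and 6.92%), for 10D 18 and 23 (9.4% and 7.79%) and for 10M 12 and 4 (7.15% and 3.05%). The members' median log2 ratio was 0.28 in WT, -0.07 in STY, 0.00 in HA, 0.13 in 10D and 0.15 in 10M, and that of all genes -0.03, -0.01, -0.04, -0.04 and -0.02.

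**Figure D5:**
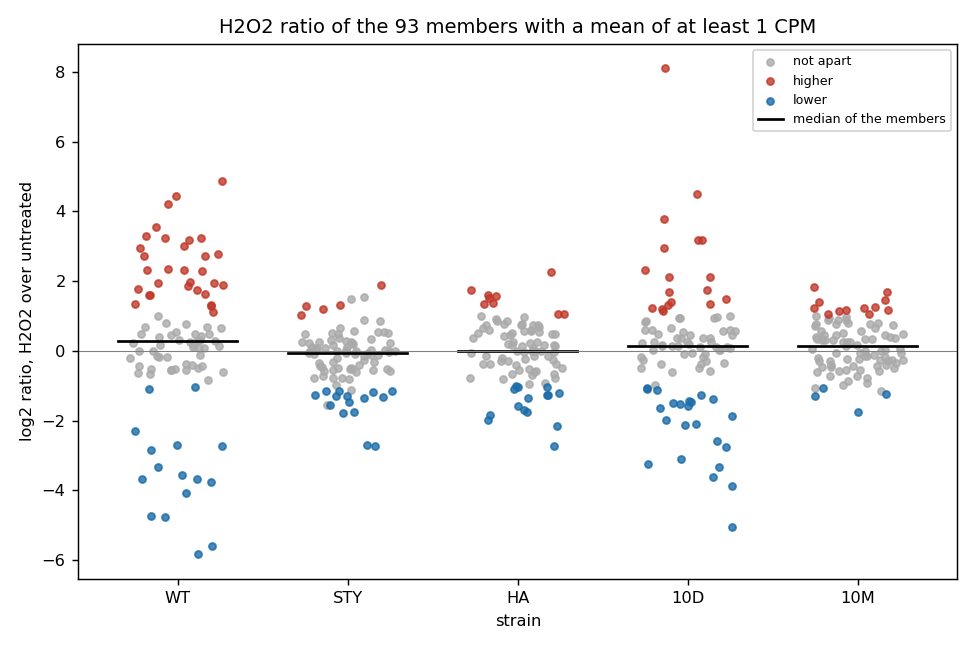
Each point is 1 of the 93 subtelomeric genes whose mean reached 1 CPM; the y axis is its log2 ratio of H2O2 over untreated within 1 strain, red where at least 2-fold higher and blue where at least 2-fold lower with an interval that excludes 1, and the black line is the median. WT (31 higher, 16 lower) and 10D (18 and 23) spread most widely, and 10M (12 and 4) least to the lower side.

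The genes with the widest ratios differed between strains. In WT they were dgc1 at a log2 ratio of -5.84 (-6.18 to -5.55), isp5 at -5.61 (-6.21 to -5.17) and cmt2 at 4.88 (4.70 to 5.09), with the 95% interval in brackets, and mel1 was at 4.21 (3.77 to 4.84). In 10D they were SPAC750.01 at 8.10 (7.68 to 8.83), hry1 at -5.05 (-6.67 to -4.58) and yhb1 at 4.50 (4.40 to 4.60). cmt2 had a ratio of 3.17 (3.09 to 3.24) in 10D, but 0.12 (-0.42 to 0.67) for STY, 0.61 (-0.20 to 1.52) for HA and -0.25 (-0.51 to 0.00) for 10M. In STY the widest were SPAC11D3.17 at -2.72 (-2.99 to -2.48) and isp5 at -2.71 (-3.17 to -2.33), in HA isp5 at -2.74 (-2.96 to -2.54) and the uncharacterized SPAC5H10.07 at 2.26 (1.78 to 2.86), and in 10M the transporter gene SPBPB10D8.04c at 1.82 (1.14 to 2.96) and sul2 at -1.75 (-1.84 to -1.67).

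Across the 5 strains, 30 of the 93 genes were apart in none, hsp3104 was higher in all 5, and isp5, SPAC1039.08 and SPAC11D3.15 were lower in all 5. The patterns in this paragraph were counted in the subtelomeric genes only. With no share over all 5969 genes beside them, they are not shown to be particular to these genes. 15 genes were higher in both WT and 10D, among them mel1, pcm2, cmt2, aes1, yhb1, cat1, mfs2, tgd1 and hsp3104. 9 genes went up in some strains and down in others. mfs2 was higher in WT at 2.96 (2.82 to 3.11) and in 10D at 3.78 (3.66 to 3.90), and lower in STY at -1.56 (-1.90 to -1.26) and in HA at -1.10 (-1.39 to -0.83). say1, SPAC869.09 and hsp3102 were higher in WT, at 1.64 (1.25 to 2.09), 1.61 (0.86 to 2.63) and 1.73 (1.14 to 2.47), and lower in 10D, at -1.48 (-1.70 to -1.29), -1.53 (-1.73 to -1.35) and -1.09 (-1.28 to -0.92), where the untreated level was already the highest of all untreated libraries.

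Genes for telomere proteins and for heterochromatin were looked at beside the subtelomeric ones, from a list of 33 names that holds none of the 157. None was called in untreated 10D or untreated WT against the pool, where their log2 differences ran from -1.23 to 0.30 and from -0.19 to 0.50; the median was 0.13 in 10D. After H2O2, 12 of the 33 were higher and 2 lower in 10D, beside 18.6% and 12.4% of all genes. In treated WT 10 were higher and 5 lower, beside 21.5% and 16.4%, and in the pool's own response 9 fell, beside 10.3%. In 10D against HA 1 of the 33 was called lower and 0 higher, beside 2.12% and 4.83% of all genes. This was clr2, which differed by -1.13 ± 0.184 (adjusted p = 0.0242). It stood at 58.2, 74.5, 59.9, 24.8 and 40.5 CPM untreated and at 48.3, 58.6, 40.2, 20.7 and 38.1 CPM after H2O2. epe1, for the factor that counters heterochromatin spread, was higher by 1.20 ± 0.161 (adjusted p = 0.00311) in treated 10D and 1.24 ± 0.163 (adjusted p = 0.00242) in treated WT and fell by 0.91 ± 0.123 (adjusted p = 0.0111) in the pool. clr4 passed only in the pool's response, in which it fell by 0.64 ± 0.164 (adjusted p = 0.0416). No fit with a strain left out is given for these 33 genes, so their calls are not shown to hold. Of the 12 subtelomeric calls in the pool's response, 0 held in all such fits. Whether these transcript levels bear on the subtelomeric genes was not tested.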

How the data were processed

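PolyA RNA of 10 cultures was sequenced, 1 library for each of 5 strains untreated or treated. The deposited table holds raw read counts per gene, which the authors made with TopHat2 2.1.1 and HTSeq after FastQC, per the submitters' processing notes; the build, annotation and strand setting are not given in the sources used here. Groups came from the sample labels. Levels are counts per 1000000 counts scaled by TMM factors (0.919 to 1.11). Tests used edgeR 4.0.16 in R 4.3.3 (TMM, filterByExpr, glmQLFit, glmQLFTest, Benjamini-Hochberg over all genes tested, adjusted p below 0.05): strain plus treatment over 10 libraries (6097 genes) or over the 8 labelled as sty1 deletion (6133 genes), and 6 cell means over 10 libraries (6176 genes). The standard error is the log2 difference over the square root of F. Of 12 tests 2 (the interactions) were added after the data were seen. Alternatives were DESeq2 1.42.0 as a test and as size factors, total counts, no filter, noncoding genes left out, strain as a block, and each strain left out. Within-strain ratios used a prior count of 2. Scripts were tested on simulated data.

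Genes named in the text are those called in a test, the 10 widest ratios per strain, the highest and most variable members, tlh1, tlh2 and the galactose genes; SPBPB10D8.01 and SPBPB21E7.05 were named after their values were seen. The members and the lists were chosen with earlier results of these data known. RefSeq ASM294v3, matched by identifier (6843 of 7017 genes), gave symbols, products, exon windows and promoter windows; protein copies were not compared, and repeated 50-base exon windows were used in their place.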

Additional observations from a re-analysis of the deposited data

Results flagged for a closer look

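The H2O2 response of 10D differed from that of the pool, by the interaction test in edgeR adjusted over all genes, in 7 subtelomeric genes. These were 6.6% of the 106 tested, beside 4.87% of all genes. On the log2 scale the difference was -4.03 ± 0.345 (adjusted p = 0.00667, but 0.0982 without HA) for SPAC11D3.01c, whose untreated level in 10D was 1371 CPM against 24.3 to 32.7 in the other strains. It was -3.05 ± 0.41 (adjusted p = 0.0176, but 0.0646 without STY and 0.158 without HA) for SPBPB2B2.08, 1.12 ± 0.222 (adjusted p = 0.0414, but 0.0972 without STY and 0.274 without HA) for SPAC11D3.08c, 1.68 ± 0.285 (adjusted p = 0.0263, but 0.069 without STY and 0.214 without HA) for SPAC5H10.05c and 1.71 ± 0.372 (adjusted p = 0.0496, but 0.0933 without STY, 0.282 without HA and 0.0515 without 10M) for tgd1. SPAC11D3.17 differed by 4.25 ± 0.804 (adjusted p = 0.0357, but 0.109 without STY and 0.22 without HA): it was 24.7 CPM untreated and 123 CPM treated in 10D, while in each of STY, HA and 10M it was lower after H2O2. SPAC750.01 differed by 7.54 ± 0.657 (adjusted p = 0.00667, but 0.0982 without HA), from 1.63 CPM untreated to 488.6 CPM treated in 10D, and from 0.471 to 7.05 CPM in WT.

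The response of WT differed from that of the pool in 6 subtelomeric genes, by -4.97 ± 1.1 (adjusted p = 0.049, but 0.109 without STY and 0.206 without HA) for dgc1, -4.01 ± 0.489 (adjusted p = 0.0157, but 0.0669 without STY and 0.151 without HA) for SPBPB2B2.08, 1.51 ± 0.286 (adjusted p = 0.0345, but 0.087 without STY and 0.231 without HA) for SPAC5H10.05c, 1.55 ± 0.224 (adjusted p = 0.0214, but 0.0712 without STY and 0.204 without HA) for SPAC11D3.08c, 3.15 ± 0.428 (adjusted p = 0.0198, but 0.0712 without STY and 0.149 without HA) for hsp3104 and 3.27 ± 0.393 (adjusted p = 0.0157, but 0.0635 without STY and 0.151 without HA) for tgd1. The 6 genes called in WT were 5.66% of the 106 tested, beside 5.44% of all genes. In this fit the share was thus near that of all genes in both interactions. With strain as a block, 28 of 106 were called for WT and 23 for 10D, beside 17.1% and 13.8% of all genes. DESeq2 called 25 and 12, beside 798 and 744 of all genes. How the subtelomeric genes compare with all genes here therefore depended on the fit. Each of the 13 calls listed above rests on 1 WT or 10D library per condition, all were lost without HA, and their causes were not tested.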

How the results depend on the processing

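The labels give no replicate numbers, and the pairing of treatments within a strain was used as a replicate block. It gave 41 calls for the pool's response, 28 for the WT and 23 for the 10D interaction, instead of 12, 6 and 7. Of all genes it called 31.4%, 17.1% and 13.8%. With each strain left out in turn, the subtelomeric calls ranged from 0 to 0 for the shared H2O2 response, 2 to 5 for STY against WT, 0 to 0 for HA against STY, 0 to 18 for 10M against HA, 16 to 21 for 10D against HA, 0 to 18 for the pool's response, 0 to 8 and 22 to 55 for WT against the pool untreated and treated, 7 to 29 and 26 to 58 for 10D against the pool, 0 to 24 for the WT and 0 to 12 for the 10D interaction. DESeq2 called 33, 40, 4, 16, 47, 20 and, for untreated WT, 14 in the first 7 of these comparisons, and 25 and 12 in the interactions. Over all genes it called 1140, 665, 21, 118, 986, 1366 and 65, and 798 and 744 in the interactions. No count over all genes is given for the other alternative fits of this paragraph, so a shift in the members cannot be told apart there from a shift in all genes. Without noncoding genes the shared response had 4 calls, and with total counts STY against WT had 10. At a 4-fold threshold 31 subtelomeric genes were apart in WT, 2 in STY, 3 in HA, 19 in 10D and 0 in 10M, with no share of all genes given at this threshold. Without the most abundant member the share of counts was, untreated and treated, 0.772 and 0.885% for WT, 0.562 and 0.468% for STY, 0.543 and 0.474% for HA, 0.797 and 1.12% for 10D and 0.546 and 0.527% for 10M. Over the 187 calls of single genes, 1505 alternatives were run, of which 1237 kept the call and 268 lost it, and none reversed a direction. Apart from the left-out strains, noncoding genes and total counts, whose construction is given, the cause of these shifts was not tested. Genes under 1 CPM rest on few counts, and 1 library per condition leaves the spread between cultures of WT and 10D unmeasured.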
